A study of Mus musculus with 8 samples.

Results

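The acrosome is the secretory vesicle that caps the nucleus of sperm. It is built from Golgi-derived vesicles in round spermatids, after meiosis, and holds the proteases, matrix proteins and membrane proteins that act when sperm pass the egg coat and fuse with the egg. Some of its components are already transcribed in pachytene spermatocytes and stored, while others are transcribed mainly in spermatids. The 10 genes described here encode acrosomal proteins and were taken by gene name from the 22603 genes of the RNA-seq table: *Acr*, *Acrbp*, *Acrv1*, *Spaca1*, *Spaca3*, *Spaca4*, *Spaca7*, *Zpbp*, *Zpbp2* and *Izumo1*. All 10 lie on autosomes, and all 10 were among the 19462 protein-coding genes tested, that is, those with a mean over 0.1 TPM, a length-corrected share of all transcripts, in at least 1 genotype.

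RNA-seq was made by Smart-seq2, a full-length cDNA amplification method, from early-to-mid pachytene cells sorted from testis by Hoechst and propidium iodide staining. The authors checked purity in test sorts from wildtype mice at postnatal day 15, where part of the cells were not pachytene, and give none for cKO. In histology of adult cKO testes the paper reports no germ cell types later than mid pachytene. Wildtype (WT) cells came from C57BL/6J males at postnatal day 15. Setdb1 cKO cells came from males, also generated on the C57BL/6J background, with 1 floxed and 1 deleted *Setdb1* allele (flox/-). They carried the *Ngn3-Cre* transgene, which is active in male germ cells, and the *Gt(ROSA)26Sor* EYFP Cre reporter. These males were at day 15 or older, the age of each sample is not given, and WT mice carried neither transgene nor reporter, so the *Setdb1* mutation cannot be told apart from these differences. Each genotype had 2 samples of 500 cells, which nothing says came from separate animals, so the p-values reflect the spread between samples that may be technical replicates.

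*Setdb1*, the targeted H3K9 methyltransferase gene, stood at 56.9 and 59.3 TPM in WT and at 28.7 and 37.2 TPM in cKO (log2 fold change -0.81, limma adjusted p = 0.269). Per the paper, the deletion takes out the core of its catalytic SET domain. TPM of the whole gene therefore cannot show how complete the deletion was. Western blots of testis and stained nuclear spreads in the paper showed a drop of the protein. Over all genes tested, log2(TPM + 1) correlated at 0.974 between the WT samples and at 0.923 between those of the cKO. The correlation with the WT samples was 0.876 and 0.886 for cKO replicate 1, and 0.944 and 0.952 for cKO replicate 2. The values below are therefore given for each sample. Markers of pachytene spermatocytes (10 genes, among them the synaptonemal complex genes *Sycp1* and *Sycp3*) were present in all 4 samples and summed to 6549 and 7676 TPM in WT and to 4145 and 5799 TPM in cKO. Markers of Sertoli cells, the supporting cells of the tubule, were also present in all 4 samples and summed to 1491 and 1218 TPM in WT and to 1409 and 1298 TPM in cKO, most of it *Clu*, clusterin.

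The promoter sequences (GRCm38.p6, RefSeq) are shown first because the later results separate genes that were near 0 in WT from genes that were already transcribed there. Transcription of many postmeiotic genes is driven by CREM, which binds the cAMP response element TGACGTCA or its short form TGACG. Windows of 250 bases before and 50 bases from the annotated start were given for 9 of the 10 genes, and each is read on its gene's own strand, 5′ to 3′. Capitals mark TGACG on either strand, including where it forms part of the full element. *Izumo1* (chr7:45621561-45621860, plus strand) holds the full element, *Spaca3* (chr11:80858113-80858412, plus strand) and *Acrbp* (chr6:125049677-125049976, plus strand) hold the short form, and *Spaca4* (chr7:45725767-45726066, minus strand) holds neither.

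Izumo1: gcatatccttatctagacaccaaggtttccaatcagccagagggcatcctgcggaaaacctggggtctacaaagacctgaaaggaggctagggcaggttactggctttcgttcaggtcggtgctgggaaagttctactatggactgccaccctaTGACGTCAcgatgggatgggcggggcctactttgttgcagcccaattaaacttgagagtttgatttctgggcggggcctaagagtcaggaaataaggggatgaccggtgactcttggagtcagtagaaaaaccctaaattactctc

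Spaca3: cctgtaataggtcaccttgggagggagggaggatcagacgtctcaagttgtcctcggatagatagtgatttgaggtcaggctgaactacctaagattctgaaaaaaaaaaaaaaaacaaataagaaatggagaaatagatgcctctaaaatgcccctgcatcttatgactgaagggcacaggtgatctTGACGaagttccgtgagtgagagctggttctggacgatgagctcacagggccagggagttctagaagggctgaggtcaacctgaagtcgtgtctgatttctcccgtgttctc

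Acrbp: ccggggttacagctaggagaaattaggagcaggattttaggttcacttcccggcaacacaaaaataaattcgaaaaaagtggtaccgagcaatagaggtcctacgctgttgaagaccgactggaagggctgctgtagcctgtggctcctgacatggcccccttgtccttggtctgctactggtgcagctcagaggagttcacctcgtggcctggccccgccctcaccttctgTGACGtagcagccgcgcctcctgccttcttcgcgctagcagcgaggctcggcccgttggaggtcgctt

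Spaca4: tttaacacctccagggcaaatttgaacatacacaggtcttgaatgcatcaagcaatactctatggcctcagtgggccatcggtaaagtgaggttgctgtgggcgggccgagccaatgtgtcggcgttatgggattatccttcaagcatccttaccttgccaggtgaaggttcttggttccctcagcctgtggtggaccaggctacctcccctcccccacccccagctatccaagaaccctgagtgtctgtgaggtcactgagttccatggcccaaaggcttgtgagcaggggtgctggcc

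TGACG, searched on both strands, lay in 5 of the 9 windows and in 20.8% of 32851 windows of the same length. Its first base was 18 bases before the start in *Acrbp*, 69 and 59 bases before it in *Spaca1*, and 62 bases before it in *Spaca3*. The RefSeq starts of *Acrbp* and *Spaca1* lie inside the gene positions given below, and so do their matches. In *Zpbp2* the match was on the opposite strand, 147 bases before the start. In *Izumo1* the matches at 96 and 93 bases, 1 on each strand, together make the palindrome TGACGTCA, which was in 1.79% of all windows. Of other motifs searched on both strands, GTTGCC, part of the X-box bound by RFX proteins, lay in the *Acrbp* window (12.5% of all windows) and TATAAA in the *Spaca7* window, 242 bases before the start (13.6%). AACTGCC, bound by A-MYB (4.12%), and the E-box CACGTG (7.15%) were in none of the 9 windows. Both the genes that were near 0 in WT and those that were transcribed there include windows with TGACG and windows without it. A match is a run of letters and not a bound site, and no binding was measured here.

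Of the 10 acrosome genes, 3 were higher in cKO and none was lower (limma on log2(TPM + 1), Benjamini-Hochberg adjusted p under 0.2 over all genes tested). The 3 were *Acrbp*, *Spaca3* and *Spaca4*. Over all genes tested, 3.48% were higher and 1.11% were lower by this test. At an unadjusted p under 0.05, 7 of the 10 genes were higher in cKO and none was lower, and of all 19462 genes 1788 were higher and 855 lower. Both cKO samples lay above both WT samples for 8 of the 10, the exceptions being *Acr* and *Zpbp*, against 26.3% of all genes. The median log2 fold change of the 10 genes was 2.77, and that of all genes tested was 0.08. Fold changes are on the log2(TPM + 1) scale, which understates the change of genes with low values. With bulk samples, a larger share of cells that transcribe a gene and more RNA of it per cell cannot be told apart.

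**Figure D1:**
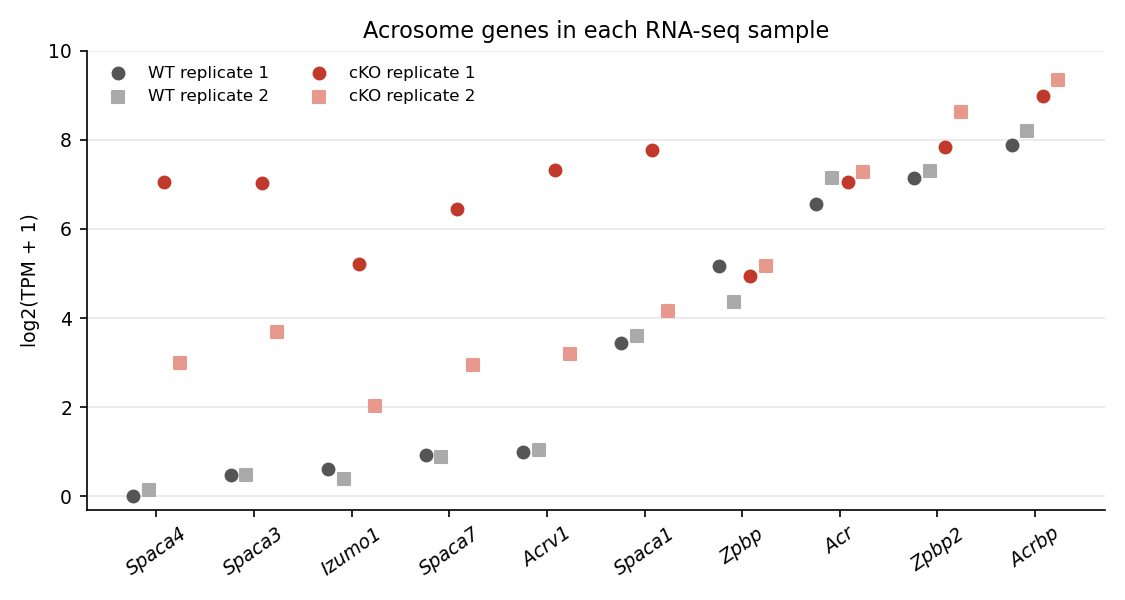
Level of each acrosome gene in the 4 RNA-seq samples, as log2(TPM + 1) on the vertical axis, with 1 point per sample (circles for replicate 1, squares for replicate 2) and genes ordered by their WT level. The 5 genes on the left are near 0 in both WT samples, higher in cKO replicate 2 and higher again in cKO replicate 1, while the 4 samples of *Zpbp* and *Acr* lie close together.

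*Acr* encodes acrosin, the serine protease that is stored as proacrosin (chr15:89568326-89574585, plus strand). It was already abundant in WT, at 92.8 and 141 TPM, and stood at 132 and 155 TPM in cKO. The WT and cKO samples overlapped, and the log2 fold change of 0.32 ± 0.28 (SE, 95% interval -0.36 to 1.00) did not pass the test (limma adjusted p = 0.707). *Acrbp*, the proacrosin-binding protein that controls proacrosin processing and storage (chr6:125049689-125063267, plus strand), was measured at 234 and 293 TPM in WT. It rose to 505 and 653 TPM in cKO. Both cKO samples lay above both WT samples, and the ratio of the genotype means was 2.19 (log2 fold change 1.13 ± 0.27, 95% interval 0.47 to 1.78, limma adjusted p = 0.160). *Acrbp* was the most abundant of the 10 genes in every sample, above 97.2% of all genes tested in WT replicate 1. Its annotated exons share 975 of 3277 bases with the noncoding *Gm44597* and 90 with an antisense transcript, *4930557K07Rik*, neither of which was analysed here.

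*Zpbp* and *Zpbp2* encode paralogous zona pellucida binding proteins of the acrosomal matrix. *Zpbp2* (chr11:98551097-98558665, plus strand) was at 140 and 157 TPM in WT and at 227 and 394 TPM in cKO. The groups did not overlap, but the log2 fold change of 1.01 ± 0.32 (95% interval 0.26 to 1.76) missed the threshold (limma adjusted p = 0.246). *Zpbp* (chr11:11279626-11462408, minus strand) was at 35.1 and 19.4 TPM in WT and at 30.0 and 34.9 TPM in cKO. Its highest sample was WT replicate 1 and its lowest WT replicate 2, and the log2 fold change was 0.30 ± 0.36 (95% interval -0.56 to 1.15, limma adjusted p = 0.806). The sign of that difference turned without WT replicate 2 (-0.11). Its exons overlap *Spata48* on the opposite strand by 223 of 4248 bases, and that gene, named *4930415F15Rik* in the table, stood at 0 and 0.0979 TPM in WT and at 14.7 and 2.19 TPM in cKO.

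*Spaca1* encodes an acrosomal membrane protein needed to shape the acrosome in mice (chr4:34024874-34050191, minus strand). It stood at 9.83 and 11.2 TPM in WT and at 217 and 16.8 TPM in cKO. Both cKO samples lay above WT, but cKO replicate 1 was 12.9 times cKO replicate 2. The log2 fold change was 2.44 ± 1.02, with a 95% interval of -0.0013 to 4.88 (limma adjusted p = 0.368). Its WT level lay between those of the abundant genes above and those of the genes near 0 that follow.

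The other 5 genes were below 2 TPM in both WT samples. *Spaca3*, which encodes a lysozyme-like protein of the sperm head (chr11:80858365-80867814, plus strand), stood at 0.401 and 0.400 TPM in WT and rose to 131 and 11.8 TPM in cKO. Both cKO samples lay far above both WT samples, and the log2 fold change was 4.87 ± 1.01 (95% interval 2.47 to 7.28, limma adjusted p = 0.122). *Spaca4*, a membrane-anchored protein of the Ly6 family that takes part in sperm binding to the zona pellucida (chr7:45725107-45725813, minus strand), was at 0 and 0.107 TPM in WT and rose to 132 and 6.94 TPM in cKO. The groups did not overlap, and its log2 fold change of 4.95 ± 1.20 (95% interval 2.10 to 7.80, limma adjusted p = 0.158) was the largest of the 10. The whole gene of 707 bases lies in an intron of *Fam83e* on the opposite strand, which was itself at 1.38 and 0.504 TPM in WT and at 53.4 and 4.51 TPM in cKO (log2 fold change 3.19, limma adjusted p = 0.256). Their exons share 0 bases. Whether unspliced RNA of *Fam83e* adds to the reads of *Spaca4* was not tested.

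*Acrv1* encodes SP-10, a protein of the acrosomal matrix that is made in round spermatids (chr9:36693220-36698843, plus strand). It was at 1.01 and 1.05 TPM in WT and at 159 and 8.10 TPM in cKO, with no overlap between the groups. The log2 fold change was 4.23 ± 1.20 (95% interval 1.37 to 7.09), which narrowly missed the threshold (limma adjusted p = 0.208). *Spaca7*, an acrosomal protein released when the acrosome opens (chr8:12573029-12600744, plus strand), was at 0.895 and 0.847 TPM in WT and at 86.2 and 6.67 TPM in cKO. Its log2 fold change of 3.79 ± 1.05 (95% interval 1.28 to 6.29) missed the threshold by less than any other gene of the 10 (limma adjusted p = 0.2003). *Izumo1* encodes the sperm membrane protein that binds JUNO on the egg before fusion and lies in the acrosomal membrane until exocytosis (chr7:45621811-45628823, plus strand). It was at 0.539 and 0.319 TPM in WT and at 36.0 and 3.07 TPM in cKO, again without overlap. Its log2 fold change was 3.11 ± 0.98 (95% interval 0.77 to 5.44, limma adjusted p = 0.248). The exons of *Izumo1* share 654 of 2992 bases with *Rasip1* on the same strand, which was at 2.53 and 1.50 TPM in WT and at 5.16 and 3.72 TPM in cKO.

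**Figure D2:**
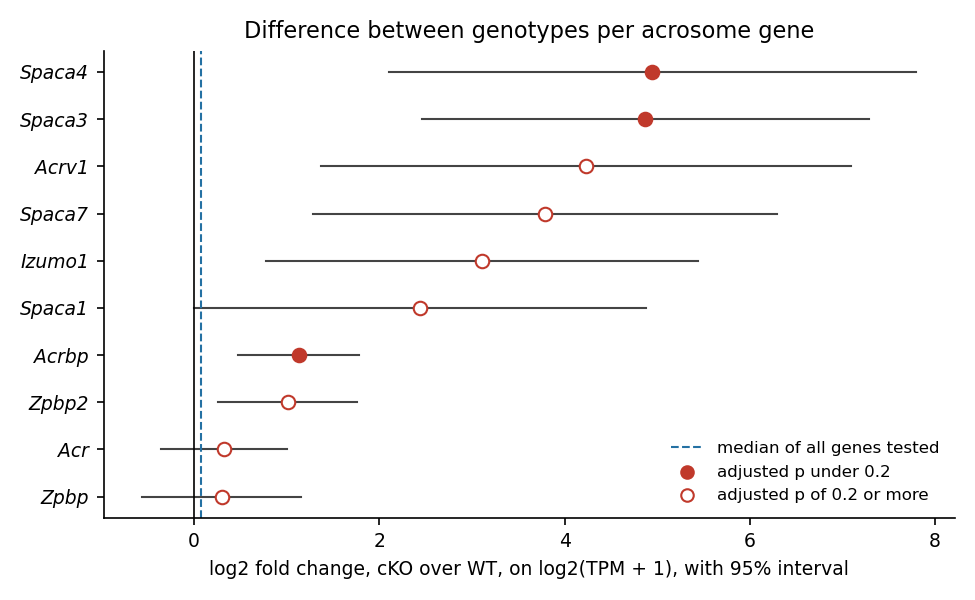
Log2 fold change of cKO over WT for each acrosome gene on the log2(TPM + 1) scale (points) with the 95% interval of the limma fit (lines), filled where the adjusted p was under 0.2. The intervals of the genes near 0 in WT are wide and lie above 0, and that of *Acrbp* is narrow and lies above 0. Those of *Acr*, *Zpbp* and, narrowly, *Spaca1* include 0. The dashed line is the median of all genes tested, 0.08.

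The 10 genes thus differed in WT level, and the log2 fold change over both cKO samples was larger in the 6 genes with the lowest WT levels than in the other 4. In cKO replicate 2 alone this did not hold for *Spaca1*. Its difference from the WT mean there was 0.63 on the log2(TPM + 1) scale, below *Acrbp* (1.31) and *Zpbp2* (1.41), and that of *Izumo1* (1.51) was close to *Zpbp2*. In WT the order from the most to the least abundant was *Acrbp*, *Zpbp2*, *Acr*, *Zpbp*, *Spaca1*, *Acrv1*, *Spaca7*, *Izumo1*, *Spaca3* and *Spaca4* by the mean TPM. The WT samples of *Zpbp2* (140 and 157 TPM) and *Acr* (92.8 and 141 TPM) overlapped, as did those of *Izumo1* (0.539 and 0.319 TPM) and *Spaca3* (0.401 and 0.400 TPM), so the order within these pairs is not beyond the spread. The samples of the other neighbours in this order did not overlap. In cKO replicate 1 the order was different, with *Spaca1* and *Acrv1* above *Acr*, and *Zpbp* the lowest of all. In cKO replicate 2 the order among the 4 most abundant genes was that of WT, and *Izumo1* was the lowest. In no gene did the 2 WT samples differ by more than 1.81-fold, *Spaca4* left out because it was at 0 in WT replicate 1.

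Of the 5 genes below 2 TPM in WT, *Spaca3* and *Spaca4* passed the test, and *Acrv1*, *Spaca7* and *Izumo1* did not. The summed level of the 5 was 2.84 and 2.72 TPM in WT, 544 TPM in the first and 36.6 TPM in the second cKO replicate. In cKO replicate 1 all 5 were over 30 TPM, and in cKO replicate 2 all 5 were over 2 TPM. Of all 5611 genes below 2 TPM in both WT samples, 232 (4.13%) were over 30 TPM in cKO replicate 1 and 888 (15.8%) were over 2 TPM in cKO replicate 2. These limits were chosen after the values were seen, so the counts are a description and carry no test. The median level of the 5 was 131 and 6.94 TPM in cKO replicates 1 and 2, and that of all 5611 genes was 0.895 and 0.720 TPM.

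The difference between the cKO samples split the 10 genes in the same way. In *Spaca3*, *Izumo1*, *Spaca1*, *Spaca7*, *Spaca4* and *Acrv1*, cKO replicate 1 was 11, 11.7, 12.9, 12.9, 19.0 and 19.6 times cKO replicate 2. In *Acr*, *Zpbp*, *Acrbp* and *Zpbp2* it was the lower sample, at 0.852, 0.858, 0.773 and 0.576 times cKO replicate 2. Against the WT mean, the median difference of the 10 genes was 4.47 in cKO replicate 1 and 1.46 in cKO replicate 2 on the log2 scale, and that of all genes was 0.13 and 0.02. Each cKO sample alone thus placed the median of the 10 genes above that of all genes, by different amounts.

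The calls depended on which samples entered the fit. Without cKO replicate 1, 5 of the 10 genes were higher (*Acrbp*, *Acrv1*, *Spaca3*, *Spaca4* and *Zpbp2*) against 2.74% of all genes. Without cKO replicate 2, 7 were higher (*Acrbp*, *Acrv1*, *Spaca1*, *Spaca3*, *Spaca4*, *Spaca7* and *Izumo1*) against 13.3% of all genes. In both of these fits the lone cKO sample is assumed to vary like the 2 WT samples, which may be technical replicates. The difference between the cKO samples is then not in the error, so these calls cannot show a rise beyond it. The log2 fold changes of *Acrbp*, *Spaca3* and *Spaca4* were 1.31, 3.20 and 2.92 without cKO replicate 1. Without cKO replicate 2 they were 0.94, 6.55 and 6.98. Without WT replicate 1 or without WT replicate 2, 0 of the 10 and 0 of all genes passed with limma, and 2 and 3 of the 10 had an unadjusted p under 0.05 (984 and 1082 of all genes). In these fits a lone sample is assumed to vary like the group with 2 samples, and the group with 2 samples is then the cKO.

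**Figure D3:**
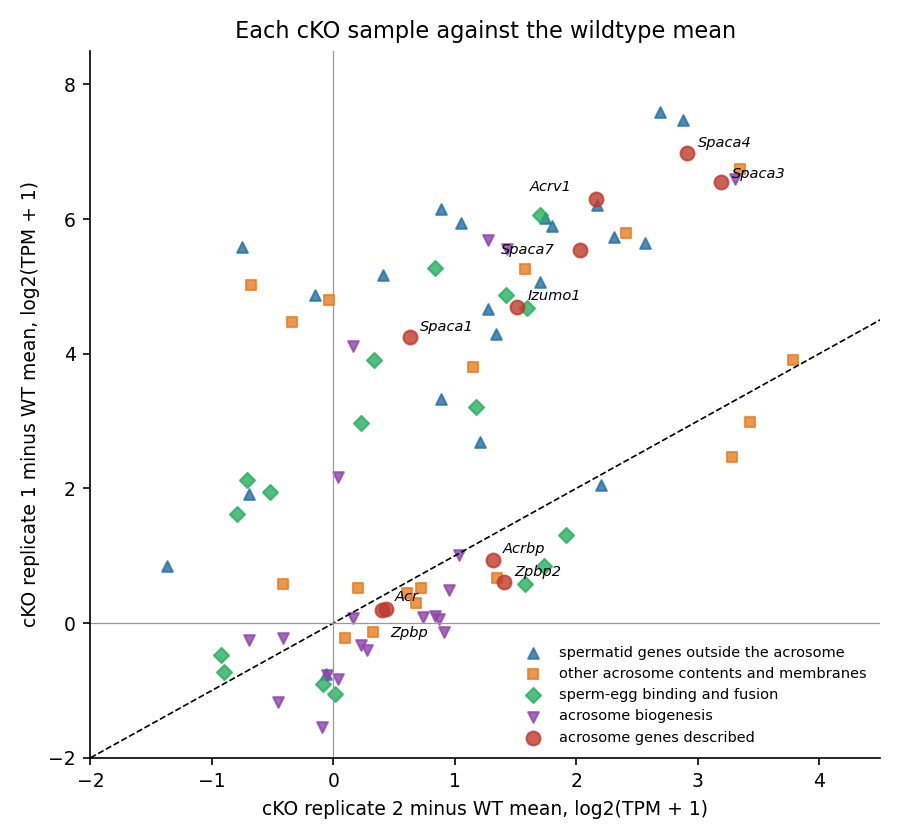
Difference of each cKO sample from the WT mean in log2(TPM + 1), cKO replicate 2 on the horizontal axis and cKO replicate 1 on the vertical axis, for the 10 acrosome genes (red circles, named) and for genes of 4 other lists (1 point per gene). The dashed line marks equal differences: *Spaca1*, *Spaca3*, *Spaca4*, *Spaca7*, *Acrv1* and *Izumo1* lie well above it, *Acrbp* and *Zpbp2* below it, and *Acr* and *Zpbp* close to the origin.

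Other genes of acrosome contents and membranes included genes that rose in both cKO samples and genes that were high mainly in cKO replicate 1. Of 18 tested, 5 were higher and none lower, 9 were higher and none lower at an unadjusted p under 0.05, and the median log2 fold change was 2.12 (2.73 in cKO replicate 1 and 0.70 in cKO replicate 2). The serine protease genes *Prss39*, *Prss21* and *Prss40* of this list rose in both cKO samples. *Prss39* went from 10.2 and 9.70 TPM to 163 and 150 TPM (limma adjusted p = 0.0246). *Prss21*, testisin, went from 12.0 and 10.6 TPM to 67.0 and 118 TPM (limma adjusted p = 0.0393), and *Prss40* from 0.833 and 2.44 TPM to 18.9 and 26.1 TPM (limma adjusted p = 0.0687). In none of these proteases was cKO replicate 1 far above cKO replicate 2, unlike in the 6 acrosome genes named above. *Tmem190*, which encodes a protein of the inner acrosomal membrane, was listed at 0 in both WT samples and rose to 106 and 9.19 TPM. *Izumo3*, named after its values were seen, was listed at 0 in both WT samples and rose to 54.5 and 4.32 TPM.

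The most abundant genes of that list, *Dkkl1*, which encodes an acrosomal protein, and *Crisp2*, which encodes a cysteine-rich protein of the acrosome and tail, did not pass. *Dkkl1* was at 961 and 1114 TPM in WT and at 940 and 1296 TPM in cKO, and *Crisp2* at 339 and 342 TPM in WT and at 417 and 545 TPM in cKO. Of 6 genes of this list below 2 TPM in WT, 5 were over 30 TPM in cKO replicate 1 and 4 were over 2 TPM in cKO replicate 2. The 2 that were not over 2 TPM there were *Spam1*, a sperm hyaluronidase gene (0.288 and 0 TPM in WT, 30.6 and 0.110 TPM in cKO), and *Eqtn*, equatorin (0.724 and 0.478 TPM in WT, 51.0 and 0 TPM in cKO), both named after their values were seen. In 10 of the 18 genes of the list cKO replicate 1 was above cKO replicate 2.

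Genes that build the acrosome include Golgi and vesicle trafficking genes. Of 20 tested, 1 was higher and none lower, where 3.48% of all genes were higher and 1.11% lower, 5 were higher and 1 lower with p under 0.05 before adjustment, and the median log2 fold change was 0.40 (0.07 in cKO replicate 1 and 0.25 in cKO replicate 2). The 1 that rose was *Fam209*, whose product lies with DPY19L2 at the inner nuclear membrane below the acrosome, from 2.41 and 0.326 TPM to 204 and 20.1 TPM (limma adjusted p = 0.125). *Spink2*, a protease inhibitor of the acrosome, stood at 517 and 573 TPM in WT and at 588 and 975 TPM in cKO, and *Pdcl2* at 604 and 658 TPM in WT and at 503 and 740 TPM in cKO. In 7 of the 20 genes cKO replicate 1 was above cKO replicate 2.

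Genes of sperm-egg binding and fusion were mixed in direction. Of 17 tested, 2 were higher and none lower, where 3.48% of all genes were higher and 1.11% lower. With p under 0.05 before adjustment, 7 were higher and 2 lower, and the median log2 fold change was 1.29 (1.95 in cKO replicate 1 and 0.33 in cKO replicate 2). *Adam3*, a sperm surface protein gene needed for zona binding in mice, rose from 83.7 and 102 TPM to 231 and 350 TPM (limma adjusted p = 0.0847). *Izumo4*, a paralogue of *Izumo1*, rose from 99.9 and 136 TPM to 212 and 390 TPM (limma adjusted p = 0.191). *Tex101*, a germ cell surface protein gene, was at 1651 and 2068 TPM in WT and at 1121 and 990 TPM in cKO, and its partner *Ly6k* at 461 and 592 TPM in WT and at 377 and 275 TPM in cKO. Neither passed the test. In 12 of the 17 genes cKO replicate 1 was above cKO replicate 2.

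Spermatid genes whose products lie outside the acrosome (nuclear proteins, tail, metabolism) were compared next. Of 21 tested, 6 were higher and none lower, 14 were higher and none lower at an unadjusted p under 0.05, and the median log2 fold change was 2.97 (5.16 in cKO replicate 1 and 1.28 in cKO replicate 2), close to the 2.77 of the acrosome genes. *Odf1*, a tail protein gene, went from 0.0699 and 0.0598 TPM to 52.3 and 5.30 TPM (limma adjusted p = 0.147), and *Capza3*, an actin capping gene of the sperm head, from 0.0619 and 0 TPM to 54.1 and 4.11 TPM (limma adjusted p = 0.176). *Smcp*, which encodes a mitochondrial capsule protein, went from 1.24 and 0 TPM to 265 and 10.0 TPM. *Pgk2*, the testis form of phosphoglycerate kinase, went from 41.6 and 39.4 TPM to 170 and 191 TPM (limma adjusted p = 0.0315), without an excess in cKO replicate 1. *Actl7b*, an actin-like gene, went from 18.9 and 19.9 TPM to 131 and 45.9 TPM, and *Fabp9*, the most abundant gene of the list, stood at 1828 and 2121 TPM in WT and at 1169 and 1884 TPM in cKO. Of 13 genes of this list below 2 TPM in WT, 12 were over 30 TPM in cKO replicate 1 and 7 over 2 TPM in cKO replicate 2. Among those listed above 0 in cKO replicate 2, replicate 1 was higher by a median of 25.2 times over 12 genes, against 12.9 times over the 5 acrosome genes. In 19 of the 21 genes of the list cKO replicate 1 was above cKO replicate 2. No test of a difference between the lists was made.

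**Figure D4:**
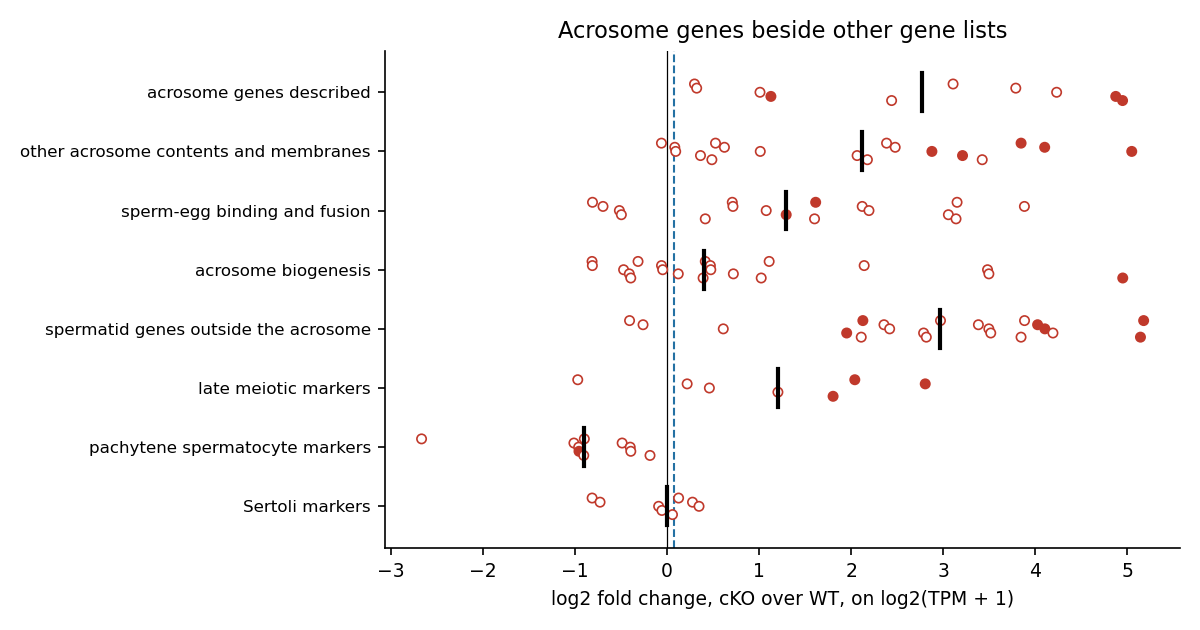
Log2 fold change of cKO over WT on the log2(TPM + 1) scale for the acrosome genes and 7 other gene lists, 1 point per gene, filled where the limma adjusted p was under 0.2, with the median of each list as a black bar. The dashed line is the median of all genes tested (0.08). The bars of the acrosome genes (2.77) and of other spermatid genes (2.97) lie furthest to the right, and that of the pachytene markers (-0.90) furthest to the left.

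Markers of other stages and cell types were measured in the same samples, where 3.48% of all genes were higher and 1.11% lower. Of 10 pachytene markers, 1 was lower and none higher (5 lower and none higher at an unadjusted p under 0.05): *Sycp2*, a chromosome axis gene, was lower at 147 and 173 TPM in cKO against 299 and 322 TPM in WT, and the median of the list was -0.90. *Ldhc*, the germ cell lactate dehydrogenase gene, and *Sycp3* did not pass, at 2524 and 3001 TPM and at 769 and 928 TPM in WT, and at 1902 and 3077 TPM and at 656 and 623 TPM in cKO. Of 7 markers of late meiosis, 3 were higher and none lower, with 1 lower at an unadjusted p under 0.05. They were *Ccna1*, cyclin A1, from 24.7 and 26.1 TPM to 142 and 238 TPM, *Ccnb1*, cyclin B1, from 46.3 and 58.4 TPM to 196 and 173 TPM, and the kinase gene *Plk1*, from 20.4 and 35.6 TPM to 121 and 108 TPM. In the same list *Cks2* was at 704 and 831 TPM in WT and at 310 and 490 TPM in cKO. In *Ccna1* cKO replicate 2 was the higher sample, and in *Ccnb1* and *Plk1* cKO replicate 1 was.

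Of 8 spermatogonial markers none passed (1 higher at an unadjusted p under 0.05), and their sum was 222 and 317 TPM in WT and 546 and 339 TPM in cKO. *Uchl1* was the highest of them, at 83.4 and 149 TPM in WT and at 267 and 193 TPM in cKO, followed in cKO replicate 1 by *Stra8* (52.1 and 32.7 TPM in WT, 92.9 and 49.8 TPM in cKO). Of 6 Leydig cell markers none passed, but their sum was highest in cKO replicate 1, at 766 TPM, where cKO replicate 2 had 110 TPM and the WT samples 92.9 and 244 TPM. *Insl3* (557 TPM in cKO replicate 1) made up most of it, with *Cyp11a1* at 58.8 TPM there. Of 9 peritubular, endothelial and blood markers none passed, and their sum was 170 and 59.4 TPM in the cKO samples and 59.5 and 75.5 TPM in WT, led by the globin genes *Hbb-bs* and *Hba-a1* (85.3 and 45.3 TPM in cKO replicate 1). Of 8 Sertoli markers none passed, and the list had a median of 0.00, with *Clu* (1151 and 999 TPM in WT, 1169 and 1067 TPM in cKO) and *Wt1* (70.5 and 65.8 TPM in WT, 68.6 and 80.5 TPM in cKO) the highest in cKO replicate 1. For the Leydig, the Sertoli and the peritubular, endothelial and blood lists 0 genes had an unadjusted p under 0.05. No marker of these 4 lists was at 0 in any sample. Without cKO replicate 2, 4 spermatogonial, 4 Leydig and 3 peritubular, endothelial and blood markers were higher and 5 pachytene markers were lower. Without cKO replicate 1, no marker of the 4 lists passed and 1 pachytene marker was lower. The part of these cells in the acrosome gene values was not tested.

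Among 8 regulators of the spermatid programme tested, 1 was higher, none was lower, and 2 were higher at an unadjusted p under 0.05. *Taf7l*, an X-linked TFIID subunit gene, stood higher in cKO (348 and 211 TPM) than in WT (42.6 and 75.6 TPM, limma adjusted p = 0.0722). The paper reports a higher median expression of X-linked genes in these cKO cells. Whether *Taf7l* rose apart from the rest of the X chromosome was not tested. *Tbpl1*, which encodes the TBP-related factor TRF2 and is required for spermatid gene transcription in mice, was at 225 and 281 TPM in WT and at 356 and 514 TPM in cKO. The genes of CREM, RFX2 and SOX30 had no call, with log2 fold changes of 0.23, -0.26 and -0.42. *Rfx4* (-0.61), *Mybl1* (-0.39) and *Tcfl5* (0.07) had no call either.

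Of 29 other tested genes within 50000 bases of the 10, 1 was higher (*4930415F15Rik*, which overlaps *Zpbp*) and none lower, where 3.48% of all genes were higher and 1.11% lower. The median log2 fold change of these 29 genes was 0.25 against 0.08 for all genes. *Izumo1* and *Spaca4* lie on the same chromosome 96283 bases apart on the GRCm38 annotation. H3K9me3 over these genes was not analysed here.

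The genes whose profile over the 4 samples was nearest to the median profile of the 10 acrosome genes (2.22, 2.32, 7.06 and 3.92 on log2(TPM + 1), Euclidean distance) were *Ccer1*, *Ccdc63*, *Aif1*, *BC049762* and *Prss46*, at distances of 0.568, 0.635, 0.653, 0.686 and 0.698. *Ccer1* was at 2.62 and 3.58 TPM in WT and at 176 and 14.8 TPM in cKO. The profile rests on 4 samples, in which cKO replicate 1 carries most of the spread.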

How the data were processed

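RNA was sequenced as single reads from 2 WT and 2 cKO samples of sorted pachytene cells, with 500 cells per genotype in the paper's words. Per the labels and methods, the authors quantified transcripts with kallisto against GRCm38 and aggregated them per gene with sleuth. The deposited values are TPM per gene and sample, treated here as a signal because the columns sum to 1109725, 942186, 996166 and 946174 rather than to a common total. No counts were analysed here, so depth is unknown and counting error cannot be given. Columns with the authors' p, q, effect size and standard error of the sleuth tests, and their genotype means, were not used. The ChIP-seq samples were not analysed here.

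Genotypes were compared with limma 3.58.1 (R 4.3.3) on log2(TPM + 1), lmFit and eBayes with trend, over the 19462 protein-coding genes with a mean over 0.1 TPM in a genotype, with Benjamini-Hochberg adjustment and a threshold of 0.2, without a replicate block. The prior degrees of freedom were 4.76. Intervals are 95% intervals of the fit. The script was tested on simulated data in which all genes had the same spread and only genes well above 0 were changed. That test does not cover genes near 0 in WT with a wide spread in cKO. Gene positions are from the GENCODE annotation of GRCm38 and promoters from RefSeq, where the start of a gene can differ from the first base of its longest transcript. Motifs were searched as exact letters with Python 3.11.15. Strand is not kept by Smart-seq2, so reads over shared exons of opposite strands cannot be told apart.

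The 10 genes and the other lists were chosen with earlier results of these data known. Of each list the text names members past the threshold (up to 4, smallest p first) and the 2 highest in cKO replicate 1, and it names the 5 genes nearest to the median profile. The regulators of the spermatid programme that were tested are all named. Hyal5, Lyzl4, Spaca5, Llcfc1, Tmem95, 4930451I11Rik, Cabs1 and Fhl5 of these lists were not analysed here. Alternatives were other pseudocounts, filters, scalings and gene types, eBayes without trend, a replicate block, and each sample left out.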

Additional observations from a re-analysis of the deposited data

How the results depend on the processing

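All 10 log2 fold changes stayed above 0 under the 13 alternatives, except that of Zpbp, which ran from -0.11 (without WT replicate 2) to 0.71 (without WT replicate 1) with a replicate left out. The number of acrosome genes past the threshold, 3 with all samples, was 6 with a pseudocount of 0.1 or 0.5, 5 with a filter over 1 TPM, 5 with each sample rescaled to a common sum (Acrbp lost), 2 with quantile normalization, 1 without the eBayes trend, and 3 without a filter or with all gene types. Acrv1, Spaca7 and Izumo1 were the genes gained by the smaller pseudocounts, and Acrv1 and Spaca7 by the stricter filter. Leaving out each replicate in turn gave from 0 (without either WT sample) to 7 (without cKO replicate 2) acrosome genes. The median log2 fold change of the 10 genes ran from 1.46 (without cKO replicate 1) to 4.47 (without cKO replicate 2), and from 2.64 to 3.44 under the alternatives that kept all samples. Over all genes tested, 895 genes passed (678 higher, 217 lower), 448 without the eBayes trend, and between 0 and 3837 with a replicate left out. The split of higher and lower genes was 825 and 114 after rescaling and 431 and 177 after quantile normalization, which moved the median of all genes from 0.08 to 0.13 and -0.11. Of all genes, 1188 passed with a pseudocount of 0.1, 1072 with 0.5, 1024 of 16679 with the filter over 1 TPM, and 939 after rescaling. The cause of these changes was not tested.

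Both genotypes carry the replicate numbers 1 and 2, but nothing says that a number marks a shared animal, litter or day, and the deviations of same-numbered samples correlated at 0.03. With a replicate block, 8 acrosome genes (all but Acr and Zpbp) and 1409 of all genes passed.

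With 2 samples per genotype and no counts, the precision of values near 0 in WT is unknown, and the 95% intervals of Spaca3, Spaca4, Acrv1, Spaca7 and Izumo1 span several log2 units.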
